A study of Homo sapiens with 12 samples.

Results

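FOXJ1 and 7 further genes of the motile cilium (RFX2, RFX3, DNAH5, DNAI1, DNALI1, TEKT2 and SPAG6) were followed across pancreatic cancer cells sorted with the GCTM-5 antibody. They are 8 of the 23346 genes in the deposited table and were matched to it by symbol. The genes were chosen by the RPKM of FOXJ1, which was selected on its sorting change: of the 16236 genes fitted, it had the largest difference in that change between the cell lines, so its own contrasts are described here without a test. The other 7 genes were listed as its possible targets or partners in building cilia.

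SW1990 and CFPAC-1 are established human pancreatic adenocarcinoma lines grown as monolayers. Each was stained with GCTM-5, a monoclonal antibody against a cell surface glycoprotein complex related to CA 19-9, and sorted into antigen positive and antigen negative cells, with gates that kept only the strongly stained and the unstained cells. Polyadenylated RNA was sequenced from 3 samples of each sorted population, which gave 12 samples in 4 groups, and no group received any further treatment. Each line stands for a single tumour, and the labels do not say whether the samples of a group came from separate cultures, so p-values measure only the spread between these samples.

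Motile cilia are the beating hairs of airway, ependymal and oviduct cells. FOXJ1 is the forkhead transcription factor at the head of the programme that builds them, and the RFX factors bind the X-box in the promoters of many cilium genes and act beside it. The products form a microtubule axoneme, in which outer and inner arm dyneins are the motors, radial spokes and the central pair set the beat, and tektins and other inner proteins stabilise the microtubule wall. Intraflagellar transport carries the parts, and it also serves the primary cilium, which does not beat and is found on pancreatic duct cells.

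Values are RPKM, read counts divided by gene length and library size, so that levels can also be set side by side between genes. Libraries held 9969697 to 26159330 reads, and the shallowest was the CFPAC-1 positive replicate 3. Differences are on the scale of log2(RPKM + 0.1), which understates the change of genes with low levels, and are given with their standard error (SE). A gene was called when it differed over 2-fold with an unadjusted p under 0.01 in limma, and each adjusted p was corrected by Benjamini-Hochberg over the 16236 genes of the fit. Epithelial markers were called with sorting in 1 of the lines. Of 10 epithelial markers (EPCAM, CDH1, keratins, claudins and others), 10 were called higher in GCTM-5 positive SW1990 cells, and their summed level was 1475 to 1701 RPKM in SW1990 negative cells, 4786 to 5121 in SW1990 positive cells, 6960 to 8016 in CFPAC-1 negative cells and 7444 to 8976 in CFPAC-1 positive cells, so that the sums overlapped in CFPAC-1. There 0 were called, but some separated without overlap, in both directions. KRT8 (means of 1703 RPKM in negative and 2776 in positive cells), KRT18 (760.8 and 1233) and CDH1 (79.03 and 98.25) were higher with the antigen. CLDN4 (1402 and 843.2), ELF3 (171.3 and 111.4) and RAB25 (139.5 and 107.5) were lower, and the others overlapped. Of 10 mesenchymal or fibroblast markers, 5 were called lower in positive SW1990 cells (summed level 1192 to 1362 RPKM in negative and 202 to 373 in positive cells), while their sums in CFPAC-1 overlapped at 547 to 746 RPKM in negative and 420 to 589 in positive cells. The part of these markers in the results below was not tested.

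Promoter windows show the sequence context of the cilium genes. They are 300 bases long, from 250 bases before to 50 bases after the transcript start, and come from RefSeq on GRCh38.p14, printed on the strand of the gene. Such windows were found for 5 of the 8 genes, and FOXJ1, RFX2 and TEKT2 had no entry. The X-box core GTTGCC, or its reverse complement GGCAAC on the other strand, is held by 12.2% of the 35116 windows of all genes, and the forkhead core GTAAACA, or TGTTTAC, by 3.42%. DNALI1 and DNAH5 are shown because they are the dynein genes of the 8 with reads in all samples, DNAI1 and SPAG6 because they hold the X-box core yet had few or no reads, and CFAP45 because this gene (listed in the deposited table under its older symbol CCDC19) was among the largest changes in the cilium lists below, a choice made after its values were seen. Capitals mark each X-box core. The windows are chr1:37556690-37556989 for DNALI1, chr5:13944639-13944938 (minus strand) for DNAH5, chr9:34458555-34458854 for DNAI1, chr10:22345246-22345545 for SPAG6 and chr1:159900116-159900415 (minus strand) for CFAP45.
DNALI1: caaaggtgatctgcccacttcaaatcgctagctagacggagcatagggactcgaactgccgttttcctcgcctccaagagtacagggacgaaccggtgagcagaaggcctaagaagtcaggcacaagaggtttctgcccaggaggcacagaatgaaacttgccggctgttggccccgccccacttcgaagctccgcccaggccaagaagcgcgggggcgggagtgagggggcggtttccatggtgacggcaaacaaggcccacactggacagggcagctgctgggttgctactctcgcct
DNAH5: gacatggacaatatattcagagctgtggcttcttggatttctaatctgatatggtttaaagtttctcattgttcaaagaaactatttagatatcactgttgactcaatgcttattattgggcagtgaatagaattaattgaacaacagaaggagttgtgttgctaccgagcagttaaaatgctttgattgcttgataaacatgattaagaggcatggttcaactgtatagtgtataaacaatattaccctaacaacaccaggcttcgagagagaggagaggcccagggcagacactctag
DNAI1: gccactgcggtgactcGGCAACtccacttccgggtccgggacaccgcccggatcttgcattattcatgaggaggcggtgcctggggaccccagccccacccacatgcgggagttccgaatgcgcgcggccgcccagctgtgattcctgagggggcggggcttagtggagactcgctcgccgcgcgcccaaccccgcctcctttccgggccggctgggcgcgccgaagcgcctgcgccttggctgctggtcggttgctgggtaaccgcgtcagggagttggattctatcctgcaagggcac
SPAG6: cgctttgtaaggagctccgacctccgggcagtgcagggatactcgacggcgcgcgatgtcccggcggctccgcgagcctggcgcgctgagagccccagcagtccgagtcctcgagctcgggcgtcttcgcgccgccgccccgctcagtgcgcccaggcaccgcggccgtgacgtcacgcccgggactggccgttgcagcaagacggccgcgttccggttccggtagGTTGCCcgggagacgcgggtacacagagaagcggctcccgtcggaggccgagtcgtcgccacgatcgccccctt
CFAP45: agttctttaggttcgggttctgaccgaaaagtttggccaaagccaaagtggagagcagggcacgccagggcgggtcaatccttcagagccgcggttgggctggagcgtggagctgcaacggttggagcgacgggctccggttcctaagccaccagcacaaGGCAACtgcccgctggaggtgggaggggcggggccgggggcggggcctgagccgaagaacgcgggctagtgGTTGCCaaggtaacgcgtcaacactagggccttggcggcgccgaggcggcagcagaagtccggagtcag
DNAI1 and SPAG6 each hold 1 X-box core, CFAP45 holds 2, and the exact letters are absent from the windows of DNALI1 and DNAH5 and from both windows of RFX3. The forkhead core is in none of these windows. Of the other list genes called lower in CFPAC-1 that had a window, DNAH1 and ENKUR hold the X-box core. The exact letters are absent from the windows of ARMC3, AK7, CCDC40 and CCDC114 (listed as ODAD1). Looser forms of the X-box were not searched, so a window without these letters may still hold an X-box. The windows cover too few of the list genes (78%) for a comparison of shares.

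FOXJ1 lies on chromosome 17 at 74132414-74137326 on the minus strand of GRCh37. In SW1990 negative cells its level was 0.958, 0.537 and 1.50 RPKM, and in SW1990 positive cells it was 4.06, 19.3 and 17.0 RPKM. In CFPAC-1 negative cells it was 8.76, 15.6 and 14.3 RPKM, and in CFPAC-1 positive cells it was 0.753, 1.74 and 1.44 RPKM. The order was thus opposite in the lines, with every positive sample above every negative one in SW1990 and every positive sample below every negative one in CFPAC-1. The group means were 0.998 ± 0.482, 13.5 ± 8.22, 12.9 ± 3.64 and 1.31 ± 0.504 RPKM (SD, n = 3), in the same order of groups. FOXJ1 was therefore 13.5-fold higher with the antigen in SW1990 and 9.84-fold lower with it in CFPAC-1. From the lowest group to the highest, SW1990 negative and CFPAC-1 positive cells overlapped, as did CFPAC-1 negative and SW1990 positive cells. These pairs did not overlap, with 1.74 RPKM the highest value of the lower pair and 4.06 the lowest of the upper pair. In bulk samples, fewer cells with the transcript and less transcript per cell cannot be told apart.

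The log2 change of FOXJ1 was 3.44 in SW1990 and -3.23 in CFPAC-1, and the difference between these was 6.67. The genes next in size of that difference were GABRP, a GABA receptor subunit, at 6.56 and the syndecan SDC2 at -6.55. The lowest FOXJ1 sample of its group, SW1990 positive replicate 1, still held 208 reads, and the other SW1990 positive samples held 866 and 794. SW1990 negative samples held 33 to 70 reads and CFPAC-1 positive samples 38 to 86. FOXJ1 shares 9 exon bases with RNF157-AS1 on the opposite strand, and whether the counting used strand is not stated.

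**Figure D1:**
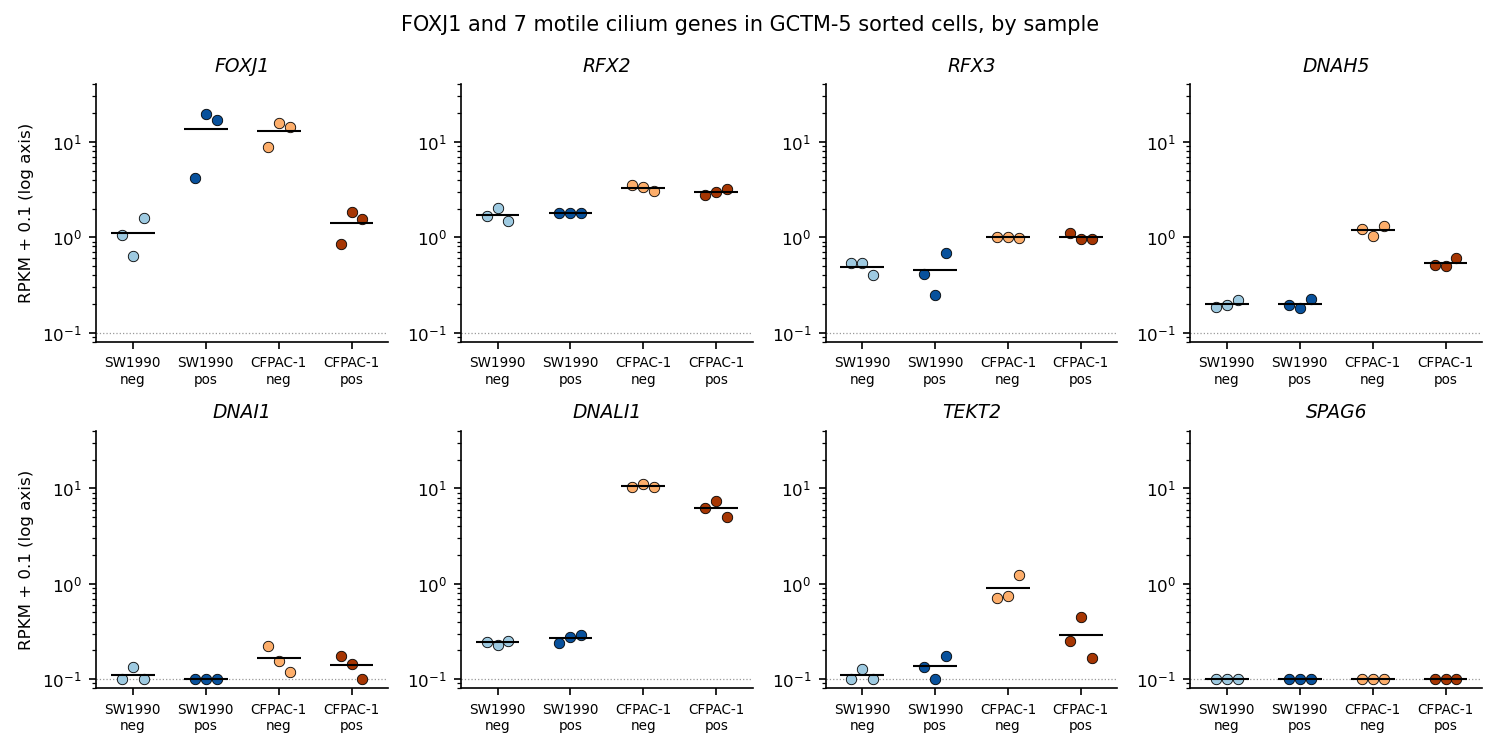
Level of the 8 genes in each sample, as RPKM + 0.1 on a log axis, with 1 point per sample, the group mean as a bar and a dotted line at an RPKM of 0. FOXJ1 is high in SW1990 positive and CFPAC-1 negative cells, DNALI1 and DNAH5 are high in CFPAC-1 whatever the antigen, and SPAG6 is at 0 in all 12 samples.

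RFX2 and RFX3 are transcription factors that bind the X-box. RFX2 (chromosome 19, 5993175-6199583, minus strand) was at 1.59, 1.92 and 1.37 RPKM in SW1990 negative cells, 1.72, 1.69 and 1.70 in SW1990 positive cells, 3.44, 3.24 and 2.95 in CFPAC-1 negative cells and 2.70, 2.90 and 3.07 in CFPAC-1 positive cells. RFX3 (chromosome 9, 3218297-3526004, minus strand) was at 0.443, 0.435 and 0.300 RPKM in SW1990 negative cells, 0.313, 0.149 and 0.586 in SW1990 positive cells, 0.910, 0.914 and 0.889 in CFPAC-1 negative cells and 1.01, 0.849 and 0.863 in CFPAC-1 positive cells. For both factors the positive and negative samples overlapped within each line, and both were higher in CFPAC-1 than in SW1990. The log2 sorting change of RFX2 was 0.07 (SE 0.15, adjusted p = 0.770) in SW1990 and -0.14 (SE 0.15, adjusted p = 0.484) in CFPAC-1. That of RFX3 was -0.24 (SE 0.31, adjusted p = 0.626) in SW1990 and -0.00072 (SE 0.31, adjusted p = 1) in CFPAC-1. Neither gave a difference between the lines in its sorting change, at 0.22 for RFX2 (adjusted p = 0.485) and -0.24 for RFX3 (adjusted p = 0.731). RFX2 shares 109 exon bases with ACSBG2 on the opposite strand and 187 with an unnamed gene on its own strand that is not in the table.

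DNAH5 and DNALI1 encode dyneins. DNAH5, the outer arm heavy chain in which mutations cause primary ciliary dyskinesia (chromosome 5, 13690437-14011927, minus strand), was at 0.0875, 0.0966 and 0.120 RPKM in SW1990 negative cells and 0.0960, 0.0794 and 0.127 in SW1990 positive cells. In CFPAC-1 it was at 1.11, 0.931 and 1.20 RPKM in negative cells and 0.415, 0.404 and 0.509 in positive cells. DNAH5 therefore overlapped between the sorted SW1990 populations and separated in CFPAC-1, where it fell with the antigen by 1.12 on the log2 scale (SE 0.22, adjusted p = 0.00223), a 2.44-fold lower mean RPKM. In SW1990 its log2 change was -0.01 (SE 0.22, adjusted p = 0.999). The sorting change differed between the lines by 1.11 (SE 0.31, adjusted p = 0.0196). This call was lost without CFPAC-1 negative replicate 3 (1.04, adjusted p = 0.0563) and with a pseudocount of 0.01 (1.25, adjusted p = 0.0641). The lowest adjusted p over all alternatives was 0.00196. DNAH5 shares 207 exon bases with an unnamed gene on the opposite strand that is not in the table.

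DNALI1, an inner arm dynein light intermediate chain (chromosome 1, 38022520-38032458, plus strand), was at 0.147, 0.130 and 0.149 RPKM in SW1990 negative cells and 0.136, 0.178 and 0.192 in SW1990 positive cells, from 7 to 9 reads per sample. In CFPAC-1 it reached 10.2, 10.9 and 10.1 RPKM in negative cells and 6.19, 7.32 and 4.96 in positive cells. These CFPAC-1 groups did not overlap, and the positive mean was 1.69-fold lower, with a log2 change of -0.76 (SE 0.18, adjusted p = 0.00616) that lies under the 2-fold threshold, so it was not called. In SW1990 the log2 change was 0.15 (SE 0.18, adjusted p = 0.601). The difference between the lines was 0.91 (SE 0.25, adjusted p = 0.0194). This call was lost without CFPAC-1 negative replicate 2 (0.88, adjusted p = 0.0551) and with voom on recovered reads (0.97, adjusted p = 0.156). The lowest adjusted p over all alternatives was 0.00252. DNALI1 shares 42 exon bases with GNL2 on the opposite strand.

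TEKT2, a tektin of the axonemal microtubule wall (chromosome 1, 36549695-36553876, plus strand), had 0, 1 and 0 reads in SW1990 negative cells, 1, 0 and 2 in SW1990 positive cells, 18, 21 and 34 in CFPAC-1 negative cells and 6, 10 and 1 in CFPAC-1 positive cells. The CFPAC-1 negative samples were at 0.613 to 1.13 RPKM and the positive ones at 0.0665 to 0.353 RPKM, without overlap, while both SW1990 groups were at the limit of the depth, where a count of 0 allows up to 3 reads. In CFPAC-1 TEKT2 fell with the antigen by 1.70 on the log2 scale (SE 0.39, adjusted p = 0.00565), and CFPAC-1 negative cells held 3.85 times the reads of positive cells at equal depth (95% exact interval 2.25 to 6.96, counting error only). No change within SW1990 is given for TEKT2 because of the few reads, and its sorting change is therefore not compared between the lines.

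DNAI1, an outer arm dynein intermediate chain (chromosome 9, 34457412-34520986, plus strand), had 0, 2 and 0 reads in SW1990 negative cells, 0 in every SW1990 positive sample, 6, 3 and 1 in CFPAC-1 negative cells and 5, 2 and 0 in CFPAC-1 positive cells. Its mean over the 12 samples was 0.0291 RPKM, under the 0.1 needed for fitting, and its groups overlapped in both lines. SPAG6, a protein of the central pair apparatus (chromosome 10, 22634374-22743153, plus strand), had no read in any of the 12 samples. These genes were thus at or near the limit of the depth also where FOXJ1 was high.

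Of the 7 genes beside FOXJ1, 5 were fitted. TEKT2 passed the filter on low values only through CFPAC-1 negative cells, at a mean of 0.793 RPKM there and at most 0.190 in the other groups. In SW1990, 0 of the 5 were called by limma in either direction, against 4.59% of all fitted genes called higher and 7.48% called lower. None of these 5 had an unadjusted p under 0.05, and voom on recovered reads also called 0. TEKT2 had 0 to 2 reads in each SW1990 sample, so it could hardly have been called there and says nothing on this point. In CFPAC-1, limma called 0 higher (0 at an unadjusted p under 0.05, and 0 with voom) and 2 lower (DNAH5 and TEKT2), against 5.65% and 4.13% of all fitted genes. Since TEKT2 was fitted only through the group where it is high, its call is not read against these shares. The sorting change differed between the lines for DNAH5 and DNALI1, both with the higher value in SW1990, where 9.16% of all fitted genes were called with a higher value in SW1990 and 17.8% with a lower one. The DNAH5 and TEKT2 changes in CFPAC-1 did not reach 2-fold with a pseudocount of 1, at -0.53 and -0.59. With a pseudocount of 0.01 the change of TEKT2 in CFPAC-1 had an adjusted p of 0.0735, the highest of its alternatives, the lowest being 0.00204.

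**Figure D2:**
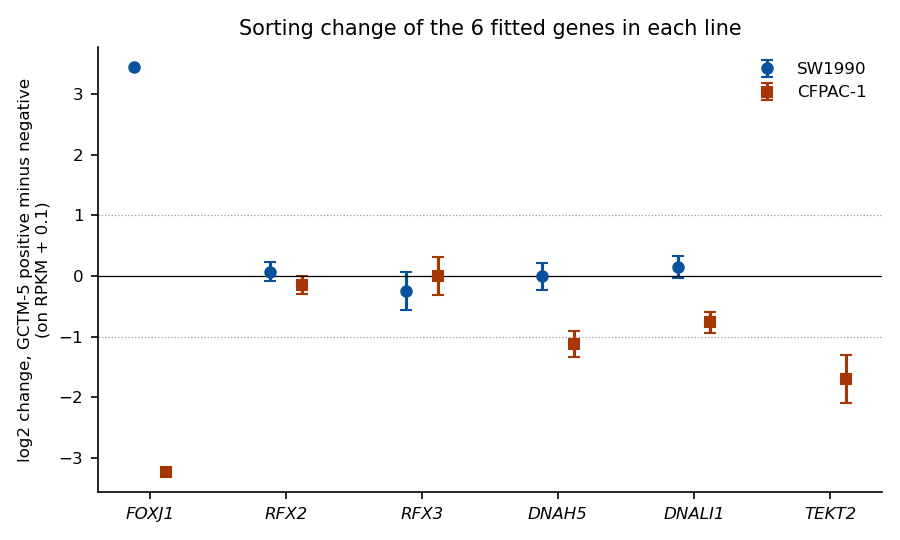
Log2 sorting change (GCTM-5 positive minus negative, on RPKM + 0.1) of the 6 fitted genes in SW1990 (circles) and CFPAC-1 (squares), with the SE of the limma fit as bars, none for FOXJ1, and dotted lines at a 2-fold change. FOXJ1 points up in SW1990 and down in CFPAC-1, whereas DNAH5, DNALI1 and TEKT2 lie below 0 in CFPAC-1 and DNAH5 and DNALI1 lie near 0 in SW1990, where TEKT2 had too few reads and is not drawn.

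The structural genes also differed between the lines. In negative cells DNALI1 was 73.3-fold lower in SW1990 than in CFPAC-1 (log2 difference -5.44, SE 0.18, adjusted p = 2.59e-10) and DNAH5 was 10.7-fold lower (-2.55, SE 0.22, adjusted p = 6.71e-07). In positive cells, where FOXJ1 was instead 10.3-fold higher in SW1990, DNALI1 was still 36.5-fold lower in SW1990 (-4.53, adjusted p = 1.46e-09) and DNAH5 4.39-fold lower (-1.44, adjusted p = 0.000117). CFPAC-1 negative cells held 73.3 times the TEKT2 reads of SW1990 negative cells at equal depth (95% exact interval 12.8 to 2934, counting error only), and CFPAC-1 positive cells 5.58 times those of SW1990 positive cells (1.62 to 29.7).
RFX3 was lower in SW1990 in negative cells (log2 difference -1.04, SE 0.31, adjusted p = 0.0104) and in positive cells (-1.28, SE 0.31, adjusted p = 0.00356). The negative call was lost without any 1 of the 6 negative samples (-1.12 to -0.90), and the positive one without SW1990 positive replicate 2 (-0.92, adjusted p = 0.0118), with adjusted p-values over all alternatives from 0.00228 to 0.102 and from 0.000385 to 0.0607. RFX2 was at -0.95 in negative cells (adjusted p = 0.000126) and -0.73 in positive cells (adjusted p = 0.00116), under the 2-fold threshold. In negative cells it passed the threshold after median centring (-1.14), with quantile normalization (-1.19), without SW1990 negative replicate 2 (-1.07) and without CFPAC-1 negative replicate 3 (-1.0), with adjusted p-values from 4.29e-05 to 0.00955 over all alternatives. Leaving out TEKT2, which was fitted only because of its CFPAC-1 levels, RFX3, DNAH5 and DNALI1 were called lower in SW1990 among negative cells, where 21.9% of fitted genes were called higher and 15% lower, and the same 3 genes among positive cells, where the shares were 14.8% and 13.7%. These line comparisons share samples with the sorting comparisons.

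Further genes of the programme were taken from 6 lists: ciliogenesis regulators, axonemal dyneins, dynein assembly and docking, nexin link with radial spoke and central pair, tektins with microtubule inner proteins, and other markers of multiciliated cells. Of their genes 113 were matched in the table, 75 were fitted and 7 were at 0 in every sample. In SW1990, 6 of the 75 were called higher with the antigen (CAPS, CCNO, MYB, RSPH1, SPAG1 and TMEM190) and 2 lower (LRRC23 and TTC25), where 4.59% of all fitted genes were called higher and 7.48% lower. In CFPAC-1, 3 were called higher (MCIDAS, listed as IDAS, MYB and CFAP52, listed as WDR16) and 11 lower (AK7, ARMC3, CCDC114, CCDC19, CCDC40, DNAH1, ENKUR, LRRC6, RSPH1, TPPP3 and TTC25), where 5.65% of all fitted genes were called higher and 4.13% lower. ARMC3 passed the filter only through CFPAC-1 negative cells (mean 1.07 RPKM, at most 0.209 in the other groups), so its call is not read against that share. Whether other list genes passed in this way was not tested. The median log2 change of the 75 was -0.01 in SW1990, where that of all fitted genes was -0.04, and -0.36 in CFPAC-1, where that of all fitted genes was 0.05. In CFPAC-1, 53 of the 75 lay below 0, against 45.9% of all fitted genes. Centring each sample on its median moved the median of all genes in CFPAC-1 from 0.05 to -0.05 and that of the lists to -0.46, with 3 called higher and 12 lower, and quantile normalization gave -0.37 with 3 and 11. The 11 lower calls in CFPAC-1 became 7 without CFPAC-1 negative replicate 3, and the 3 higher calls became 1 without CFPAC-1 positive replicate 1 and 5 without CFPAC-1 positive replicate 2. The 2 lower calls in SW1990 became 1 without SW1990 negative replicate 3 or SW1990 positive replicate 1.

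**Figure D3:**
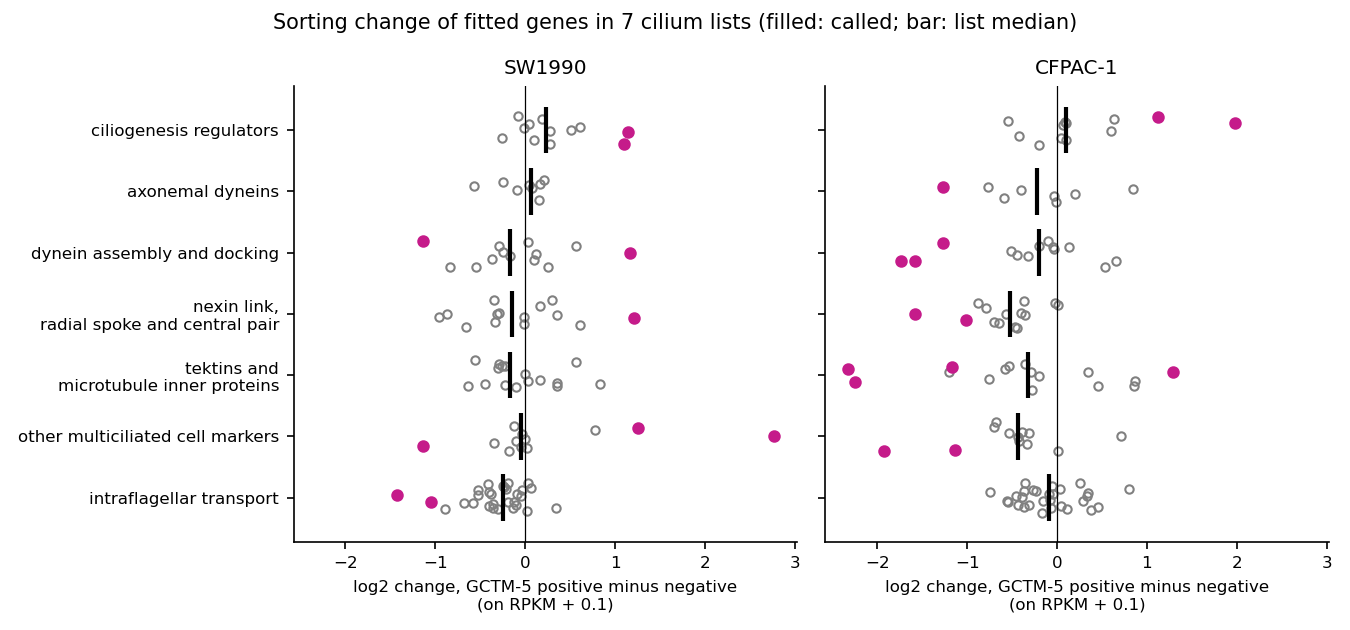
Log2 sorting change (GCTM-5 positive minus negative, on RPKM + 0.1) of each fitted gene in the 7 cilium lists, SW1990 on the left and CFPAC-1 on the right, with called genes filled and the median of each list as a bar. In CFPAC-1 the medians of the 5 structural and marker lists lie below 0 and 11 filled points lie to the left. In SW1990 the medians of all 7 lists lie between -0.24 and 0.24. Those of the same 5 lists lie below 0 there too (-0.16 to -0.04), except for axonemal dyneins (0.06).

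Among ciliogenesis regulators, 12 of 18 were fitted. CCNO, a cyclin needed to amplify the basal bodies of multiciliated cells, was at 4.42, 3.93 and 3.79 RPKM in SW1990 negative cells and 7.96, 9.38 and 9.11 in positive cells, where it rose by 1.10 (SE 0.20, adjusted p = 0.00112), while in CFPAC-1 its groups overlapped at 8.51 to 11.6 and 8.0 to 14.8 RPKM. MCIDAS (IDAS), an upstream activator of the same programme, was at 0.708, 0.609 and 0.691 RPKM in CFPAC-1 negative cells and 2.05, 0.962 and 1.95 in positive cells, so it rose with the antigen where FOXJ1 was low (1.12, SE 0.25, adjusted p = 0.00524). That call was lost without CFPAC-1 positive replicate 1 (0.94) or replicate 3 (0.98). In SW1990 MCIDAS was also higher with the antigen, at means of 1.17 RPKM in negative and 1.83 in positive cells without overlap. That change of 0.61 (SE 0.25, adjusted p = 0.0981) was not called. The forkhead relatives FOXJ2 and FOXJ3 and the factor RFX1 were called in neither line, with FOXJ2 at 15.4 RPKM in SW1990 without the antigen and 15.8 with it, and at 4.62 and 4.04 in CFPAC-1, and RFX4 had 1 read in all 12 samples together.

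The counts per list below stand against the shares of all fitted genes given above, 5.65% higher and 4.13% lower in CFPAC-1 and 4.59% and 7.48% in SW1990. In the lists of dyneins, 1 of 8 fitted axonemal dyneins (DNAH1) was called lower in CFPAC-1 and 0 were called in SW1990 by limma, where 1 had an unadjusted p under 0.05 and voom called 0. Of 13 fitted assembly and docking genes, 3 were called lower in CFPAC-1 (CCDC114, LRRC6 and TTC25), and in SW1990 SPAG1 was called higher and TTC25 lower. TTC25 (also ODAD4), part of the docking complex that anchors outer dynein arms, fell in both lines, by 1.14 in SW1990 (SE 0.25, adjusted p = 0.00504) and by 1.74 in CFPAC-1 (SE 0.25, adjusted p = 0.000389). Its levels were 1.28, 0.990 and 1.22 RPKM in SW1990 negative, 0.371, 0.679 and 0.406 in SW1990 positive, 1.13, 1.67 and 1.64 in CFPAC-1 negative and 0.367, 0.460 and 0.289 in CFPAC-1 positive cells. TTC25 therefore did not share the opposite order of FOXJ1, and quantile normalization left its SW1990 change under 2-fold (-0.89). CCDC114 (ODAD1), of the same complex, was at 1.44, 1.60 and 1.62 RPKM in CFPAC-1 negative and 0.700, 0.612 and 0.467 in positive cells (log2 change -1.27, SE 0.38, adjusted p = 0.0210), a call lost without any 1 of 5 of the 6 CFPAC-1 samples, all but positive replicate 1 (-1.32 to -1.13). SPAG1, a factor for assembling dynein arms in the cytoplasm, rose by 1.17 in SW1990 (SE 0.18, adjusted p = 0.000397), from 4.24 ± 0.627 to 9.77 ± 2.19 RPKM (SD, n = 3), and lay just under 2-fold without SW1990 positive replicate 1 (1.00). In CFPAC-1 SPAG1 was also higher with the antigen, at means of 2.42 RPKM in negative and 3.86 in positive cells without overlap. That change of 0.66 (SE 0.18, adjusted p = 0.0140) was under the 2-fold threshold, so SPAG1 did not share the opposite order of FOXJ1.

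RSPH1, a radial spoke head protein, was the 1 list gene called in opposite directions in the lines, as FOXJ1 was ordered. The share of all fitted genes called in opposite directions is not given here, so this count has no background to stand against. It was at 0.427, 0.315 and 0.497 RPKM in SW1990 negative cells and at 1.02, 1.34 and 0.909 in SW1990 positive cells, from 10 to 31 reads. In CFPAC-1 it was at 3.76, 4.18 and 4.63 RPKM in negative and at 1.65, 1.48 and 0.955 in positive cells. RSPH1 thus rose with the antigen in SW1990 by 1.21 (SE 0.23, adjusted p = 0.00207) and in CFPAC-1 fell by 1.58 (SE 0.23, adjusted p = 0.000429), with no overlap in either line and a difference of 2.79 (SE 0.33, adjusted p = 0.000116). Unlike FOXJ1, its CFPAC-1 positive cells (mean 1.36 ± 0.363 RPKM) were not below its SW1990 positive cells (1.09 ± 0.222 RPKM; SD, n = 3). In its list of nexin link, radial spoke and central pair genes, 14 were fitted, and in CFPAC-1 13 of them lay below 0 and 2 were called lower (CCDC40 and RSPH1).

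Among tektins and microtubule inner proteins, 3 of 16 fitted genes were called lower in CFPAC-1 (CCDC19, ENKUR and TPPP3) and 0 were called in SW1990 by limma or voom, where 4 had an unadjusted p under 0.05 with a higher level. CCDC19 (CFAP45), a microtubule inner protein, was at 1.95, 2.57 and 2.57 RPKM in CFPAC-1 negative and 0.447, 0.475 and 0.335 in positive cells, and fell by 2.25 (SE 0.21, adjusted p = 2.61e-05). In SW1990 it was at 0.136, 0.144 and 0.126 RPKM in negative and 0.345, 0.295 and 0.314 in positive cells, from 4 to 12 reads, without overlap and with a log2 change of 0.83 (adjusted p = 0.00994) that was under the threshold. The difference between the lines was 3.08 (SE 0.29, adjusted p = 2.62e-05). TPPP3, a tubulin polymerization promoting protein, was at 19.5, 16.6 and 13.3 RPKM in CFPAC-1 negative and 2.57, 4.24 and 2.92 in positive cells and fell by 2.32 (SE 0.29, adjusted p = 0.000144), while in SW1990 it had 0 to 4 reads per sample.

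Among the other markers, TMEM190 and CAPS were called higher with the antigen in SW1990 and ARMC3 and AK7 lower in CFPAC-1. TMEM190 was at 0.328, 0.145 and 0.286 RPKM in SW1990 negative and 2.26, 2.19 and 2.28 in SW1990 positive cells (2.77, SE 0.34, adjusted p = 8.01e-05), and had 1 to 5 reads in each CFPAC-1 sample. CAPS, the calcium binding protein calcyphosine, was at 6.08, 7.34 and 9.0 RPKM in SW1990 negative and 12.4, 23.9 and 18.7 in positive cells (1.25, SE 0.30, adjusted p = 0.00778), and its CFPAC-1 groups overlapped at 14.2 to 17.6 and 7.92 to 19.5 RPKM. CAPS thus shared the SW1990 order of FOXJ1 and not that of CFPAC-1. ARMC3, an armadillo repeat protein, was at 0.915, 1.34 and 0.965 RPKM in CFPAC-1 negative and 0.191, 0.152 and 0.286 in positive cells (-1.93, SE 0.35, adjusted p = 0.00156), with no read in SW1990 negative cells and 2, 10 and 1 reads in SW1990 positive cells. AK7, an adenylate kinase of the axoneme, was at 2.87, 3.44 and 3.54 RPKM in CFPAC-1 negative and 1.37, 1.71 and 1.25 in positive cells (-1.14, SE 0.35, adjusted p = 0.0240), a call lost without any 1 of 5 of the 6 CFPAC-1 samples, all but positive replicate 2 (-1.23 to -1.05). LRRC23, a radial spoke protein, fell by 1.14 in SW1990 (SE 0.28, adjusted p = 0.00895), from 1.67 ± 0.590 to 0.698 ± 0.249 RPKM (SD, n = 3), and not without SW1990 negative replicate 3 (-0.90) or SW1990 positive replicate 1 (-0.97).

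**Figure D4:**
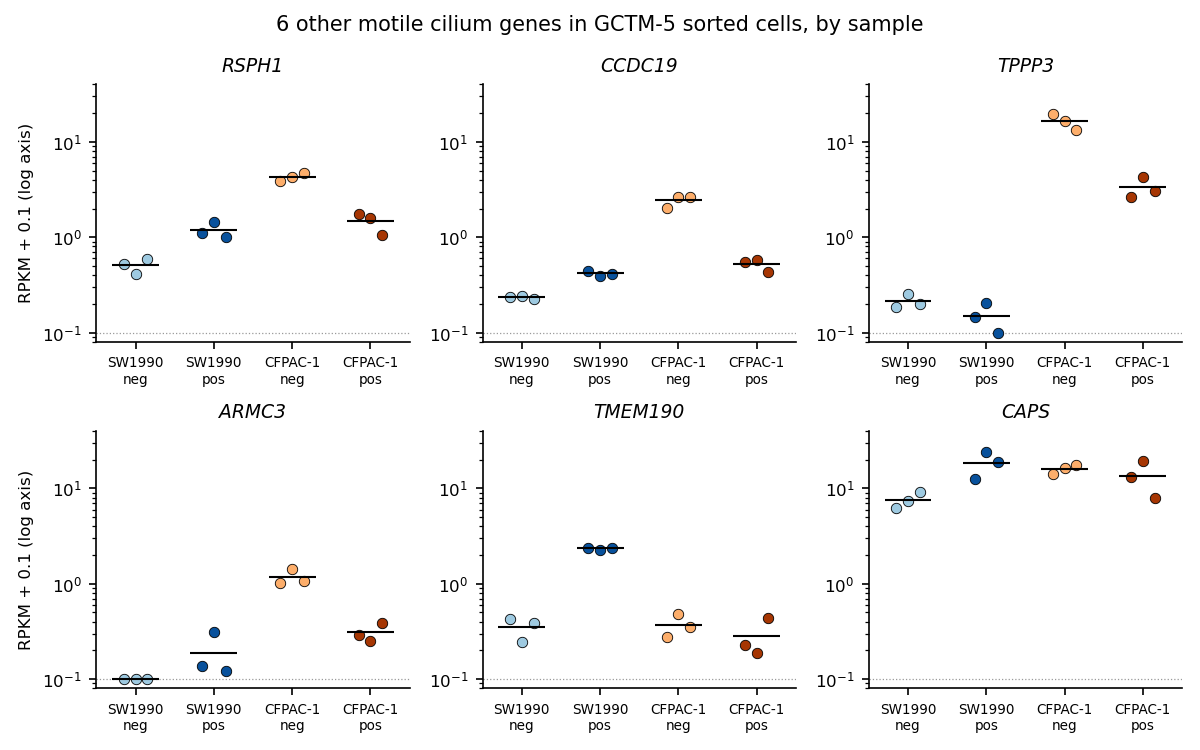
Level of 6 genes of the motile cilium lists in each sample, as RPKM + 0.1 on a log axis, with 1 point per sample, the group mean as a bar and a dotted line at an RPKM of 0. RSPH1 and CCDC19 show the FOXJ1 order within both lines, TPPP3 and ARMC3 are highest in CFPAC-1 negative cells, and TMEM190 and CAPS separate the SW1990 populations alone.

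By the test of the difference itself, 13 of the 75 list genes had a higher sorting change in SW1990 than in CFPAC-1, against the 9.16% of all fitted genes given above. Among them were CAPS, CCDC19, CCNO and RSPH1. Also among them were TMEM190, near the limit of the depth in CFPAC-1, and ARMC3 and TPPP3, at or near that limit in SW1990. In the lower direction limma called 0, with 6 at an unadjusted p under 0.05, and voom called 1, against 17.8% of all fitted genes. The 0 became 5 without CFPAC-1 positive replicate 2. The median difference was 0.28 over the 75 and -0.15 over all fitted genes. Between the lines, 22 of the 75 were called lower in SW1990 negative than in CFPAC-1 negative cells and 8 higher, against 15% and 21.9% of all fitted genes. In positive cells 11 were called lower and 8 higher, against 13.7% and 14.8%, so the lower share there was near that of all genes.

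For intraflagellar transport, which motile and primary cilia share, all 29 listed genes were fitted. In SW1990, 2 were called lower with the antigen (KIF17 and WDR35) and 0 higher, where 1 had an unadjusted p under 0.05 and voom called 0. The lower count was near the 7.48% of all fitted genes called lower. Of the 29, 25 lay below 0, against 53.7% of all fitted genes, with a median of -0.24. In CFPAC-1 limma and voom called 0 in either direction, with 2 higher and 7 lower at an unadjusted p under 0.05 and a median of -0.09. WDR35 (IFT121), a subunit of the transport complex that returns cargo to the cell body, was at 5.57, 4.76 and 4.77 RPKM in SW1990 negative and 2.27, 2.49 and 2.41 in positive cells and fell by 1.04 (SE 0.16, adjusted p = 0.000475), just past the threshold and under it without SW1990 negative replicate 1 (-0.97). In CFPAC-1 WDR35 overlapped, at 2.69 to 2.98 RPKM in negative and 1.92 to 3.06 in positive cells.

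The 5 genes whose log2(RPKM + 0.1) over the 12 samples was most like that of FOXJ1, among the 13266 genes that reached a mean of 1 RPKM, were CEACAM1 (Pearson r 0.959), KCNK6 (0.950), EHF (0.941), CDK18 (0.939) and SEMA3B (0.938), and none is in the cilium lists. Only 39 genes of the motile cilium lists reached that mean, so their absence from these 5 says little about them. The 12 FOXJ1 values fall into a high and a low set. CEACAM1, a cell adhesion molecule, was at 17.0 ± 3.52 RPKM in SW1990 negative, 48.8 ± 16.1 in SW1990 positive, 39.4 ± 2.68 in CFPAC-1 negative and 19.7 ± 4.72 in CFPAC-1 positive cells (SD, n = 3). EHF, an ETS factor of epithelial cells, was at 77.9 ± 9.0, 148 ± 20.4, 172 ± 9.96 and 105 ± 6.46 RPKM in the same order. Their levels spanned less than those of FOXJ1. They followed the same order within each line, which largely follows from choosing them by their likeness to FOXJ1 over these samples.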

How the data were processed

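Per the labels and the study's methods, reads of 12 sorted samples were aligned to hg19 (GRCh37) and counted by gene with QuasR. The authors deposited RPKM, read counts divided by library size and gene length. The annotation, the version of QuasR and the use of strand are not given in the sources used here. Library totals and reads per gene were recovered from the RPKM values through single-exon gene lengths (GENCODE 44 mapped to GRCh37). All 19654 genes above 0 gave whole reads within 0.01 of a read, and sums reached 99.9% to 100.0% of the totals. Log2(RPKM + 0.1) of the 16236 genes whose RPKM averaged 0.1 or more was fitted as 4 group means with limma 3.58.1 in R 4.3.3 (eBayes with an intensity trend, 2-sided). The fit was run on simulated data with changes planted only in genes with many reads, so that run does not cover genes with few reads. Sorting and line contrasts were called when over 2-fold with an unadjusted p under 0.01, the thresholds of the study, and the difference between lines at an adjusted p under 0.05. The genes and lists were chosen with earlier results of these data known. List genes were named when called in a line at a group mean RPKM of at least 1, at most 3 per list and line by size of change, and the genes most like FOXJ1 by Pearson r. The alternatives were other pseudocounts, filters, scalings, each line alone, an adjusted p, no trend in eBayes, blocking by replicate number, voom on recovered reads, and each sample left out in turn. Replicate numbers were not taken to pair samples. DNAAF6, CFAP54, PIERCE2, PIFO and CCDC170 were not analysed here.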

Additional observations from a re-analysis of the deposited data

Results flagged for a closer look

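For some of the genes named above the sorting change differed between the lines, given here as the log2 change in SW1990 minus that in CFPAC-1. For FOXJ1 the difference was 6.67, with every positive sample higher in SW1990 and every one lower in CFPAC-1, and it was not tested because it selected the gene. By the limma interaction the difference was 1.11 for DNAH5 and 0.91 for DNALI1, with adjusted p-values of 0.0196 and 0.0194. The DNAH5 call was lost with a pseudocount of 0.01 (adjusted p = 0.0641) and without CFPAC-1 negative replicate 3 (0.0563). That of DNALI1, with 7 to 9 reads per SW1990 sample, was lost with voom (0.156) and without CFPAC-1 negative replicate 2 (0.0551). It was 1.03 for CCNO (adjusted p = 0.0162), 2.79 for RSPH1 (0.000116), 3.08 for CCDC19 (2.62e-05), 1.59 for CAPS (0.0159) and -0.81 for WDR35 (0.0225). For TMEM190 the fitted difference was 3.20 (adjusted p = 0.000577). TMEM190 had 1 to 5 reads in each CFPAC-1 sample, so this value largely restates its SW1990 change and is not read as a difference between lines. The WDR35 call was lost with quantile normalization (adjusted p = 0.0678), without SW1990 negative replicate 1 (0.0573) and without CFPAC-1 negative replicate 1 (0.0503), the lowest adjusted p over its alternatives being 0.00416. The fitted differences of TEKT2 (1.98), TPPP3 (1.77) and ARMC3 (2.71) were past the threshold too, but these genes were fitted only through their CFPAC-1 levels and were at or near the limit of the depth in SW1990, so these values restate the CFPAC-1 change and are not read as a difference between lines.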

How the results depend on the processing

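The 2 members called in CFPAC-1 became 0 with a pseudocount of 1, 1 with 0.01 and 0 with a mean RPKM of at least 1, a filter that DNAH5 and TEKT2 do not pass. The 3 members past the threshold for the difference between lines, counting TEKT2, became 1 with a pseudocount of 0.01 or that filter and were 1 to 3 with a sample left out, 1 without CFPAC-1 negative replicate 3. The line calls, with TEKT2 4 in negative and 3 in positive cells, became 1 and 1 with a pseudocount of 1 and likewise with that filter. With a pseudocount of 1 the motile cilium lists gave 3 higher and 0 lower in SW1990, 0 higher and 3 lower in CFPAC-1 and 1 lower in the difference. With the filter at 1 they gave 1 lower in SW1990, and 1 higher and 3 lower in CFPAC-1. Lower calls in SW1990 were 4 with a pseudocount of 0.01 or voom and 0 with quantile normalization. Lower calls in the difference were 1 without a filter, 2 without the trend and 1 with voom. With a sample left out, the lists gave 1 to 3 lower in SW1990, 1 to 5 higher and 7 to 12 lower in CFPAC-1, and 0 to 5 lower in the difference. The causes of these shifts were not tested, beyond the genes that a filter removes.

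Signs turned only for values near 0 that were called in no setting. RFX2 in SW1990 was -0.034 to 0.19 with a sample left out. RFX3 in SW1990 was 0.052 with quantile normalization and -0.61 to 0.12 with a sample left out. RFX3 in CFPAC-1 was 0.00040 with a pseudocount of 1, 0.024 with voom and -0.071 to 0.040 with a sample left out, and its difference between lines was 0.060 with quantile normalization and -0.61 to 0.13 with a sample left out. DNAH5 in SW1990 was 0.042 after centring, 0.29 with quantile normalization and -0.099 to 0.070 with a sample left out. The FOXJ1 difference was 5.22 with a pseudocount of 1.

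The study describes repeated sorts, and the labels do not say whether a number marks a shared sort. Not every same-numbered pair deviated together, with correlations of 0.18, 0.016 and 0.12 in SW1990 and -0.019, 0.0013 and -0.059 in CFPAC-1, so the numbers were not taken as pairs, and a shared sort was not tested further. With replicate number as a block within line, the members called were 0 in SW1990, 2 in CFPAC-1, 2 for the difference, and 3 and 2 between lines in negative and positive cells, and the lists gave 5 higher and 2 lower in SW1990, 2 higher and 11 lower in CFPAC-1 and 13 and 0 for the difference. RFX3 between lines (adjusted p = 0.102 and 0.0607) and the differences of TEKT2 (0.0549) and WDR35 (0.0531) were no longer called under the block.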
